A study of Mus musculus with 39 samples.

Results

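Blood vessel genes and the apelin system were followed in stromal vascular cells of mouse brown fat. The set held 10 genes. Pecam1, Cdh5, Kdr, Flt1, Tek, Tie1, Vwf and Eng mark endothelial cells, Apln encodes the peptide apelin and Aplnr its receptor. Members were the probes whose gene symbol in the deposited series table was 1 of these 10, which gave 19 of 40628 probes and 10 of 29411 gene symbols. All 19 probes were well above background on at least 6 arrays, the minimum for testing. The genes were chosen by measured values of these arrays. These were the level of Aplnr in mice on the middle dose of KAL, the slope of Aplnr over time, and the level of endothelial genes at the 3 doses. Those contrasts are therefore given below as description with no test.

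RNA was measured on 39 Agilent arrays of 1 colour. Weaned C57BL/6J mice received a low fat control diet (LFC, 10 arrays) or a diet high in fat and sucrose (HFC, 11 arrays). Other mice received the high fat, high sucrose diet with the botanical formulation KAL-1 at 5, 20 or 75 µg (HF5, HF20 and HF75, 6 arrays each). LFC arrays covered Day 1, 6, 10 and 14 and Week 0, 3, 9, 12, 15 and 18, HFC arrays the same labels and Week 6, and dose arrays Week 3 to Week 18. Weeks were counted from Day 14, so Day 14 and Week 0 are the same day. Each array held 1 diet at 1 time label, with no second array of that pair, so every p-value below rests on the spread over time labels. Whether an array held RNA of 1 animal or of several is not given in the sources used here. A level is the log2 signal of a probe minus the 75th percentile of its array, so that 0 is that percentile, and levels were compared between arrays for 1 probe only.

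Endothelial cells line blood vessels and hold together through junction proteins such as VE-cadherin. They respond to VEGF and to angiopoietins through receptor tyrosine kinases, and in brown fat the dense capillary bed supplies oxygen and fuel for heat production. Apelin is a secreted peptide of fat and endothelial cells that acts through a G protein-coupled receptor found in growing vessels.

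The labels call the samples infiltrating macrophages. Emr1, which encodes the macrophage protein F4/80, could be read above background on each of the 39 arrays, at levels from -1.42 to 4.15. Endothelial genes were measured beside it on every array. Between 6 and 8 of the 8 endothelial members and between 21 and 29 of the 29 further endothelial genes tested were well above background. In such mixed cells, fewer endothelial cells and less RNA per endothelial cell cannot be told apart. LFC Day 10 and HFC Week 12 stood apart, with levels of Ucp1, the uncoupling protein of brown fat, at -3.16 and -3.18 against 1.48 to 8.82 on the other 37 arrays. The mesothelial gene Msln was at 3.46 and 4.08 there and at most -0.68 elsewhere. Outlier marks covered 71.4% of spots on HF20 Week 15, 18.6% on HF5 Week 12, 11.1% on HFC Week 12 and at most 2.19% on the others, and a member spot so marked was left out. For Day 14 the deposited series table and the array labels disagree on which array is LFC and which HFC, and the array labels were followed here. For HF20 Week 12 the title and the source name give HF20, while the field for diet gives the high fat diet alone. It was grouped by the title and enters the HF20 values and the titled arrays described below, and values without it are given there.

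The probes are shown by their first 30 of 60 bases, since several results turn on which probe of a gene was read. Aplnr, Apln and Vwf each had probes of different sequence. Eng had 1 probe of its own sequence and 3 probes that share 1 sequence, numbered 01417, 01215 and 01216 on the array.
Aplnr 52_P97572: gggcctttgtgagctggacatgggtgtgca
Aplnr 51_P299055: ccctgtgactttgacatcttcctcatgaat
Eng 51_P268563: gggattacagaaagacacggcactgccggt
Eng 01417, 01215 and 01216: ccaacccccaaatgtctgatgagggagcta
Vwf 51_P103397: caagtgaggcctgtgcagctacagcggatt
Vwf 51_P103406: ccaaggtgcagtacatcaaagtgggagatt
Apln 52_P62284: aaactgtccccttcccataagtgtgttcgc
The probe of a gene with the highest mean signal is called its main probe, and values below come from it unless another is named.

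The endothelial members moved together between arrays, so upstream sequences are shown for 2 of them beside Apln, which did not move with them. Each run is the 250 bases before the RefSeq start in GRCm38.p6, read on the strand of the gene, and capitals mark GGAAG or its complement CTTCC, the core of the binding motif of ETS factors, which regulate many endothelial genes.
Eng, chr2:32646345-32646594, plus strand: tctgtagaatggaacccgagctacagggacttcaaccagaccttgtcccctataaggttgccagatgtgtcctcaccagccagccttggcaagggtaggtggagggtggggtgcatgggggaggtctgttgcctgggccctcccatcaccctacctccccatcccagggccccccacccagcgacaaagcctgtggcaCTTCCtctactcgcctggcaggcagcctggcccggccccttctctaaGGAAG
Tie1, chr4:118489850-118490099, minus strand: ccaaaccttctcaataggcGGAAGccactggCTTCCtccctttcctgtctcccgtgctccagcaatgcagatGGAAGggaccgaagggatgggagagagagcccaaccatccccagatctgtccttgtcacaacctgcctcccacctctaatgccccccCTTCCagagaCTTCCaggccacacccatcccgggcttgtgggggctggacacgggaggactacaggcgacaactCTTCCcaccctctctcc
Apln, chrX:48034854-48035103, minus strand: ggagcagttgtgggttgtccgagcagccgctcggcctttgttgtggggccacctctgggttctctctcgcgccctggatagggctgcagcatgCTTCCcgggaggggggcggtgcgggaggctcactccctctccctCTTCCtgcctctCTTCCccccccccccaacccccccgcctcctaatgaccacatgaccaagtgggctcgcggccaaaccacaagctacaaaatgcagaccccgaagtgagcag
The Eng window held the motif 2 times, the Tie1 window 6 times and the Apln window 3 times. RefSeq windows were at hand for 6 members (Eng, Tek, Tie1, Kdr, Flt1 and Apln). Of these 6, 5 held the motif on either strand, beside 64.1% of all 32851 promoters. The window without it was that of Tek, which moved with the endothelial members, while that of Apln held it. The Tek window lies partly, and the Kdr and Flt1 windows wholly, within the gene spans given below. For these genes the sequence searched is therefore not all upstream of the gene. The motif of another factor family active in vessels, searched as AGATAA on both strands, was in 0 of the 6 windows and in 9.99% of all promoters.

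The junction and adhesion genes were high in the first weeks and lower, with more spread, from Week 9 on. Pecam1, at chr11:106654213-106715281, encodes an adhesion protein of endothelial cells, platelets and leukocytes. Its level on the 10 LFC and HFC arrays from Day 1 to Week 0 ran from 1.06 to 2.96 (median 2.15), and on the 8 arrays from Week 9 to Week 18 from -1.23 to 2.37 (median 0.80). Cdh5, at chr8:104101613-104144504, encodes VE-cadherin and ran from 4.14 to 5.88 (median 5.21) early and from 2.57 to 5.81 (median 3.66) late. The late arrays therefore overlapped the early ones for both genes. LFC Week 15 reached 5.81 for Cdh5 and LFC Week 18 stood lowest at 2.57.

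The VEGF receptors followed the same course. Kdr, at chr5:75932827-75979072, encodes the main signalling receptor for VEGF and had early levels of 4.57 to 6.45 (median 5.48) and late levels of 2.22 to 6.10 (median 4.30). Flt1, at chr5:147561604-147726438, encodes a receptor that binds VEGF tightly with weak signalling, and ran from 5.54 to 7.23 (median 6.73) early and from 4.18 to 7.96 (median 5.52) late. The highest Flt1 level of all was on LFC Week 15. The lowest late Kdr level was on HFC Week 12, 1 of the arrays with mesothelial genes.

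Tek and Tie1 form the angiopoietin receptor system, in which Tek binds the ligand and Tie1 acts as its partner. Tek, at chr4:94739086-94874976, ran from -0.84 to 2.58 (median 1.90) early and from -0.96 to 2.43 (median 0.60) late. Tie1, at chr4:118471191-118489849, ran from 1.13 to 3.57 (median 2.52) and from -0.54 to 2.68 (median 0.80). Eng, at chr2:32646595-32682669, encodes endoglin, a co-receptor for ligands of the TGF-beta family, and went from a median of 3.22 (2.89 to 4.80) to one of 2.41 (0.40 to 4.00). LFC Day 10 gave the low early value of Tek.

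Vwf departed from this course. It encodes von Willebrand factor, a clotting protein stored by endothelial cells and platelets, and lies at chr6:125552948-125686679. Early levels ran from 1.21 to 5.70 (median 4.76) and late levels from 0.69 to 5.88 (median 4.62). The late arrays fell into a group at 0.69, 1.33 and 2.36 (LFC Week 12, HFC Week 9 and LFC Week 18) and a group at 4.40 to 5.88. The low group had array titles of another kind, described below. Day 14 was low for both diets, at 2.75 in LFC and 1.21 in HFC.

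**Figure D1:**
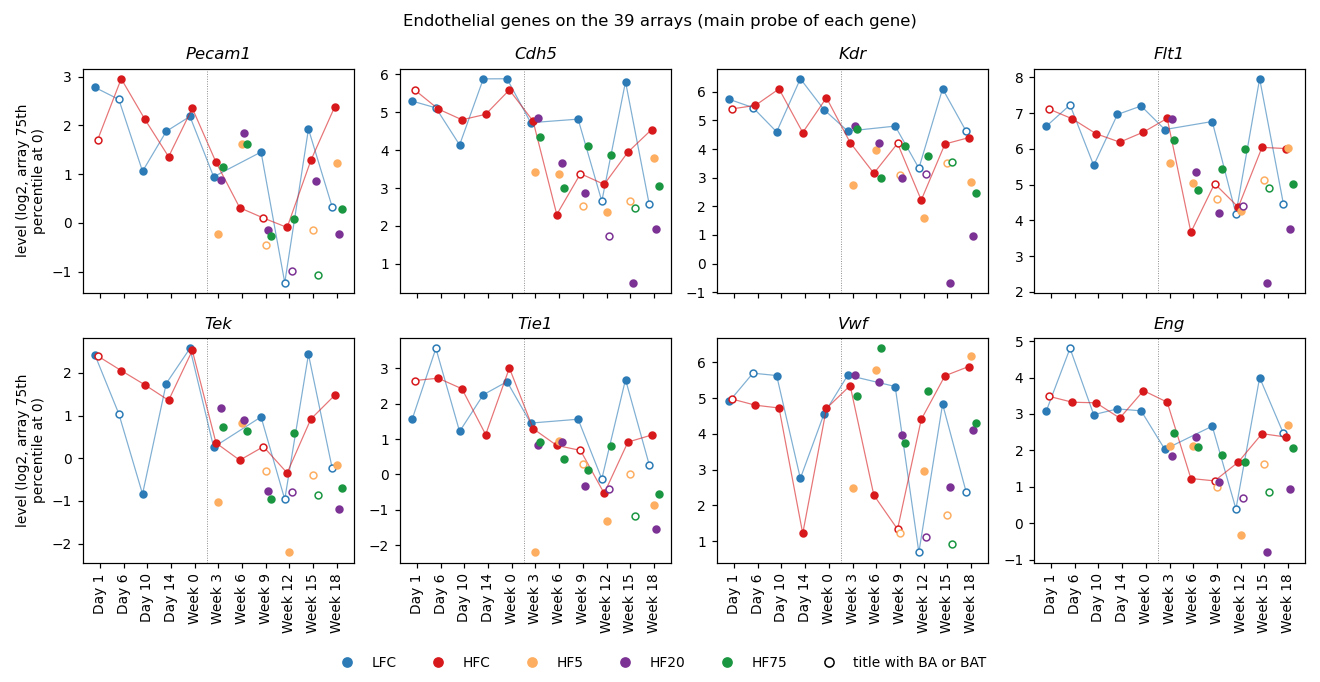
Level (log2 signal minus the 75th percentile of the array) of the main probe of 8 endothelial genes by time label, with lines for LFC and HFC, points for the KAL doses and open circles for arrays whose title holds BA or BAT. Most genes sit higher from Day 1 to Week 0 than later, while the Vwf levels from Week 9 on separate by title, with open circles at 0.69 to 2.36.

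Over the whole course of LFC and HFC, a slope per doubling of days on diet gave -0.27 as the median of the 8 endothelial genes, with Tie1 lowest at -0.29 ± 0.09 (SE) and Vwf at -0.18 ± 0.16. The median over all genes was -0.05, and 64.0% of all genes had a slope under 0. Of the further endothelial genes, 28 of 29 had a slope under 0 with a median of -0.25. The slopes of other cell types moved as well, with medians of -0.53 for 5 erythroid genes, -0.30 for 6 platelet genes and 0.27 for 6 adipocyte genes, and their part in the endothelial slopes was not tested. Without the titled arrays Vwf had a slope of 0.14 and Flt1 of -0.06, while Kdr was at -0.25 and Pecam1 at -0.23. With the titled arrays and HFC Week 6 left out, Vwf was at 0.17 and Flt1 at -0.03.

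Aplnr had the lowest slope over time of the 10 genes. It lies at chr2:85136360-85139923. Its main probe read 0.92 to 3.41 (median 2.69) on the 10 LFC and HFC arrays from Day 1 to Week 0 and -1.43 to 0.49 (median -0.11) on the 8 arrays from Week 9 to Week 18. These ranges did not overlap. The slope that helped to choose Aplnr rests on the same levels, and how many other probes separate in this way was not counted. In LFC the levels were 2.21, 3.41, 0.92, 2.66 and 2.73 from Day 1 to Week 0, then 0.60 at Week 3 and -0.09, -1.43, 0.49 and 0.13 from Week 9 to Week 18. The low early value was again LFC Day 10. In HFC the levels were 2.91, 3.09, 2.44, 1.71 and 2.95 from Day 1 to Week 0, then 1.47 at Week 3, 0.31 at Week 6 and 0.02, -0.12, -0.86 and -0.30 from Week 9 on. In both diets Week 3 lay between the early and the late arrays. The slope was -0.55 ± 0.09 (SE) per doubling of days, also -0.55 without the titled arrays, -0.80 without Day 1 and -0.39 with normexp background correction. This contrast helped to choose Aplnr, so no test was made of it.

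The other Aplnr probe, 51_P299055, gave a weaker and noisier reading. It was well above background on 24 of 38 arrays, with a level of -4.02 to -0.11 (median -2.53) early and -5.18 to -1.90 (median -3.04) late, and its slope was -0.19 ± 0.13. The 2 probes correlated at 0.23 over 37 arrays. Which of them follows the receptor transcript more closely cannot be told from these files, and statements on Aplnr below name the probe.

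Apln, at chrX:48025146-48034853, showed little trend. Its main probe ran from -0.16 to 1.41 (median 0.58) early and from -0.56 to 1.54 (median 0.30) late in LFC and HFC, with a slope of -0.00 ± 0.07. Its other probes, 51_P209327 and 51_P133345, were well above background on 26 and 6 of 38 arrays and correlated with the main probe at -0.11 and 0.31.

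**Figure D2:**
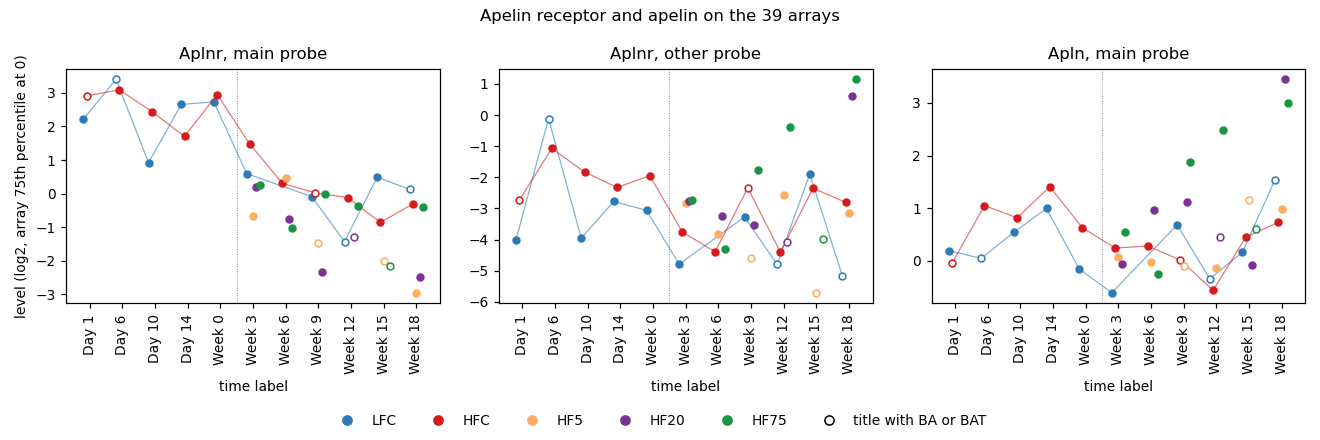
Level (log2 signal minus the 75th percentile of the array) of the Aplnr main probe, the other Aplnr probe and the Apln main probe by time label, with lines for LFC and HFC, points for the KAL doses and open circles for titles with BA or BAT. In LFC and HFC the Aplnr main probe lies at 0.92 to 3.41 early and at most 0.49 from Week 9 on, while Apln lies between -0.61 and 1.54 throughout.

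The first question of the study's design was what the high fat diet changed. No member probe was called between HFC and LFC in the limma fit of diet and time label, and no other probe was, since 0 of 34043 probes (0%) passed an adjusted p of 0.05. Before adjustment 959 probes had a p under 0.05. Kdr had the most negative difference. Its LFC levels ran from 3.33 to 6.45 (median 5.09) and its HFC levels from 2.22 to 6.10 (median 4.40), which overlap over most of their range. The fitted difference was -0.56 (95% interval -1.58 to 0.46), and HFC was higher at 3 of 10 shared time labels. For the main Aplnr probe LFC ran from -1.43 to 3.41 (median 0.76) and HFC from -0.86 to 3.09 (median 1.47), with a difference of 0.13 (95% interval -0.59 to 0.85). Apln had levels of -0.61 to 1.54 in LFC and -0.56 to 1.41 in HFC, with a difference of 0.22 (95% interval -0.44 to 0.87). Every member had an adjusted p of 1.00 from limma. The intervals leave room for changes of about 1 log2 unit either way in most members, so a moderate effect of the diet was not detectable with these arrays.

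An exact sign-change test over the 10 shared time labels, two-sided with a smallest possible p of 0.00195, gave 0.0371 for the other Aplnr probe. HFC was higher at 8 of 10 labels there, with a mean difference of 0.83 ± 1.03 (SD, n = 10). This is 1 of 19 probes so tested, the next had a p of 0.180, and the main Aplnr probe gave 0.578. At the 6 labels where LFC and HFC were scanned on the same date, Vwf had a difference of 0.96 ± 0.94 (SE) against -0.22 over all labels. These 6 labels hold Week 12 (HFC minus LFC 3.72) and Week 18 (3.52), where LFC had an array title of the kind described below. They leave out Week 9 (-3.99), where HFC had such a title. The part of the title in this value was not tested. In the fit over all labels the 6 adipocyte genes were all below 0 (median -0.50) and the 8 macrophage genes all above 0 (median 0.39). Of these genes 0 were called, and the median over all genes was 0.04.

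Whether the diet difference itself changed over the course was asked with an interaction of diet and period. Week 3 to Week 18 was set against Day 1 to Week 0 in the 20 LFC and HFC arrays of shared labels. Of 34043 probes, 0% passed, with 800 at an unadjusted p under 0.05. Vwf had the highest member values, 1.37 (95% interval -1.47 to 4.22) and 1.76 (95% interval -0.89 to 4.41) for its probes, and Cdh5 51_P309056 the lowest at -0.86 (95% interval -2.51 to 0.80). Titles of the kind described below fell unevenly on the late pairs. For the main Vwf probe HFC minus LFC was -3.99 at Week 9, where the HFC array had such a title. It was 3.72 at Week 12 and 3.52 at Week 18, where the LFC array had one. At Week 3 and Week 15, where neither array had one, it was -0.29 and 0.79. Over 22 alternative fits, among them the title as a covariate, the interaction value of this probe ran from 0.63 to 2.56. All adjusted p-values of members were 1.00.

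At the KAL doses the endothelial genes lay below HFC. The 3 doses share the same HFC arrays, so their values are not independent of each other, and they are a description. On the scale of the fitted difference from HFC, 8 of 8 endothelial genes were below 0 in HF5 (median -0.72), 8 of 8 in HF20 (median -0.95) and 7 of 8 in HF75 (median -0.31). Single time labels moved these medians, to between -1.17 and -0.50 in HF5, -1.27 and -0.56 in HF20, and -0.62 and -0.05 in HF75 when each label was left out in turn. The lowest medians came without Week 6 in HF5 and HF20 and without Week 12 in HF75. All 3 highest came without Week 15, where 7, 7 and 4 of 8 genes were below 0. Without the HF20 Week 12 array alone the HF20 median was -1.06, with 7 of 8 genes below 0. Some HFC and dose arrays have titles of another kind, described below, and fall unevenly on these pairs. Over 29 alternative fits the medians ran from -1.30 to -0.50 in HF5, -1.92 to -0.56 in HF20 and -0.91 to -0.05 in HF75. These fits included the title as a covariate, no titled arrays, and no arrays with over 10% of spots marked. They also included a fit without the time label, in which the dose arrays were set against all HFC arrays from Day 1 on, so that the time course enters its values. Over all genes the medians were -0.04, -0.01 and 0.09, and 53.3%, 50.7% and 43.4% of genes were below 0. Of 29 further endothelial genes, listed with these earlier results known, 29, 29 and 26 were below 0 in HF5, HF20 and HF75, with medians of -0.57, -0.69 and -0.25.

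Single genes varied widely between time labels at the doses. For Kdr the HF20 levels were 4.80, 4.20, 2.97, 3.14, -0.67 and 0.96 from Week 3 to Week 18. The matching HFC levels were 4.23, 3.15, 4.19, 2.22, 4.17 and 4.40. HF20 was thus above HFC at 3 of 6 labels and far below it at Week 15 and Week 18, and the mean difference was -1.16 ± 2.49 (SD, n = 6). Tie1 was below HFC at 5 of 6 labels in HF5, with a mean difference of -1.24 ± 1.31 (SD, n = 6). Week 3, at -3.50, weighed most in it, and the mean over the other labels was -0.79. In HF75 the mean differences ran from -0.62 ± 1.20 for Tie1 to 0.12 ± 3.09 for Vwf (SD, n = 6). The SD was larger than the mean difference for all 8 endothelial genes at each dose. HF20 Week 15 is the array with 71.4% of its spots marked. Its 75th percentile, taken with the marked spots included, was the highest of all, at 3974 intensity units against a median of 129.9. Its levels rest on that scaling, and the part of the scaling in its low values was not tested. With Week 15 left out of the fit, the HF20 difference was -0.59 for Kdr against -1.37 with it, and -0.29 for Flt1 against -0.96. In HF75 without Week 15, Cdh5 was at 0.07 against -0.27, Eng at 0.11 against -0.25, Flt1 at 0.31 against -0.02 and Vwf at 1.27 against 0.29.

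The main Aplnr probe showed the lowest values of the members at the lower doses. Its HF5 levels were -0.67, 0.45, -1.48, -2.01 and -2.95 at Week 3, 6, 9, 15 and 18. Its HF20 levels were 0.20, -0.74, -2.33, -1.30 and -2.49 at Week 3, 6, 9, 12 and 18, and the HF75 levels 0.25, -1.01, -0.02, -0.38, -2.17 and -0.39 from Week 3 to Week 18. The HFC levels at Week 3 to Week 18 were 1.47, 0.31, 0.02, -0.12, -0.86 and -0.30. Every HF20 and HF75 array with a value, and 4 of 5 in HF5, lay below the HFC array of its label. The mean differences were -1.46 ± 1.07 (SD, n = 5) in HF5, -1.61 ± 0.61 (SD, n = 5) in HF20 and -0.71 ± 0.64 (SD, n = 6) in HF75. In the fit the HF20 value was -1.60, and -1.76 without the HF20 Week 12 array. With normexp the fitted values were smaller, at -0.76, -0.64 and -0.40. The other Aplnr probe went the opposite way in HF20 and HF75, with fitted values of -0.42, 0.72 and 1.35 from the lowest to the highest dose, and the mean of the probes gave -0.43 in HF20 and 0.30 in HF75.

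Apln was higher in the upper doses on its main probe. HF75 levels were 0.55, -0.25, 1.88, 2.49, 0.61 and 3.00 from Week 3 to Week 18 against 0.24, 0.28, 0.01, -0.56, 0.44 and 0.73 in HFC, so that 5 of 6 lay above HFC with a mean difference of 1.19 ± 1.40 (SD, n = 6). Without Week 12 that mean was 0.82. HF20 had a mean difference of 0.78 ± 1.16, which was 0.40 without Week 18, where HF20 lay 2.72 above HFC. HF5 had one of 0.13 ± 0.40, which was 0.01 without Week 15. The SD was again larger than the mean. The probe 51_P209327 went the opposite way, with mean differences of -0.93, -0.88 and -0.85 in HF5, HF20 and HF75. The 2 highest Apln levels of the series were on HF20 Week 18 (3.45) and HF75 Week 18 (3.00). The other Aplnr probe also had its highest levels there, at 0.62 and 1.15.

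**Figure D3:**
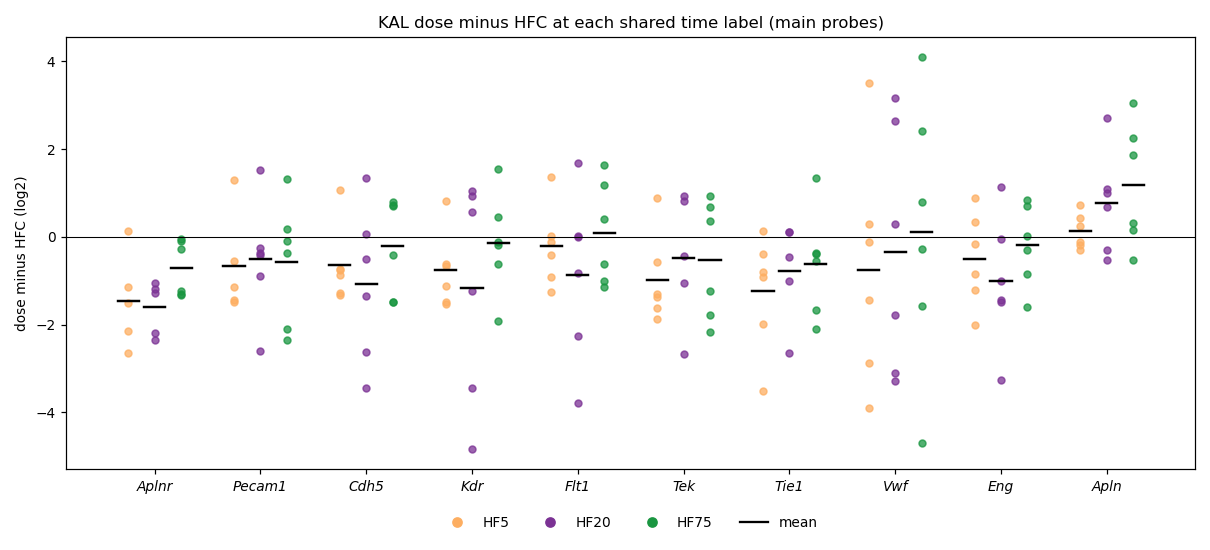
Difference in level (log2) between each KAL dose and the HFC array of the same time label for the main probe of each member. Points are time labels and black bars their mean. The Aplnr main probe has bars at -1.46, -1.61 and -0.71, and the points of most other genes fall on both sides of 0.

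Other genes of the pathways gave a mixed picture at the doses. Of 13 genes around apelin signalling, among them the arrestins and downstream kinases and transcription factors, 11, 11 and 8 were below HFC in HF5, HF20 and HF75 (medians -0.34, -0.40 and -0.01). Of 12 VEGF and angiopoietin ligands and co-receptors, 9 were below HFC at each dose. Markers of other cells moved in the same contrasts. All 7 neutrophil genes were above HFC at each dose (medians 0.98, 1.14 and 1.46) and so were all 5 brown adipocyte genes (1.43, 1.02 and 1.37), while 6, 5 and 4 of 6 fibroblast genes were below it. The part of these cells in the endothelial values was not tested. HFC Week 12, with Ucp1 at -3.18, was among the HFC arrays of these contrasts, and its part in the brown adipocyte medians was not tested.

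The array titles marked a further split. The titles of 9 arrays hold the letters BA or BAT where most others hold B or B-A, and the labels do not say what they stand for. These arrays were HFC Day 1, LFC Day 6, HF5 and HFC Week 9, LFC and HF20 Week 12, HF5 and HF75 Week 15, and LFC Week 18. With the title added to diet and time label, limma called 52.4% of all probes (20.5% higher and 31.8% lower on titled arrays, median -0.30). Of the 19 member probes 7 were called, 1 higher and 6 lower, a smaller share than that of all probes. The direction over all probes depended on the scaling. Of the called probes 39.2% were higher with the 75th percentile, 66.6% with quantile normalization (median of all probes 0.18) and 27.2% with normexp (median -1.30).

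Vwf had the largest difference by title of the 19 probes. From Week 9 on, the 7 titled arrays had levels of 0.69 to 2.36 (median 1.21) and the other 13 arrays 2.52 to 6.17 (median 4.40), with no overlap. The second Vwf probe gave -1.55 to -0.24 against values of up to 4.15, again with no overlap. How many of all probes separate in this way was not counted. The limma difference was -2.42 ± 0.54 (SE, adjusted p = 0.0010), and -2.44 ± 0.55 for the second probe (adjusted p = 0.0010). It was -2.69 with quantile normalization and -0.95 with normexp, where the main probe was not called (adjusted p = 0.079) and the second was (-1.04, adjusted p = 0.029). Arrays of Day 1 and Day 6 did not show the split, with 4.98 and 5.70 on the titled arrays and 4.80 and 4.91 on the others.

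The Vwf difference was also present among arrays scanned on the same date. Titled minus other arrays gave -3.28 at Week 12 (2 against 3 arrays), -3.00 at Week 15 (2 against 3) and -3.66 at Week 18 (1 against 2). The Vwf levels did not overlap at any of these labels, but with so few arrays this was common. Of the 19 member probes 8, 11 and 15 had no overlap at Week 12, 15 and 18. The share over all probes was not counted. With scan date as a random block the fit gave -2.55 and -2.61 for the 2 probes. HFC Week 6, whose title has neither BA nor BAT, had a Vwf level of 2.29, inside the range of the late titled arrays.

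Pecam1 was lower on titled arrays as well. Late titled arrays ran from -1.23 to 0.33 (median -0.45) and the other late arrays from -0.27 to 2.37 (median 0.58), so the groups overlapped. The difference was -1.06 ± 0.32 (SE, adjusted p = 0.0089), -0.96 with quantile normalization (adjusted p = 0.027) and -0.21 with normexp (adjusted p = 0.49), and -0.81 without Week 15 (adjusted p = 0.096). Within scan dates it was -1.10, -1.96 and -1.47 at Week 12, 15 and 18. The other endothelial genes had no main probe called. Cdh5 had -0.77 (95% interval -1.57 to 0.02), Flt1 -0.48 (-1.38 to 0.41), Tek -0.50 (-1.32 to 0.32), Tie1 -0.10 (-0.92 to 0.72), Eng -0.26 (-1.03 to 0.52) and Kdr 0.34 (-0.66 to 1.35). For Flt1 and Eng normexp turned the direction, to 1.06 (adjusted p = 0.030) and 0.67 (adjusted p = 0.049), and it brought Kdr to 1.30 (adjusted p = 0.017). Cdh5, Tie1 and Tek also turned with normexp, to 0.73 (adjusted p = 0.091), 0.26 (adjusted p = 0.41) and 0.01 (adjusted p = 0.96), without being called. With array weights Cdh5 was called at -1.13 (adjusted p = 0.0038), Flt1 at -0.88 (0.041) and Eng at -0.80 (0.027).

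For the weaker probes the size and the call depended on the scaling, and for Apln 51_P209327 the direction did too. The other Aplnr probe was lower on titled arrays by the 75th percentile (-1.33, adjusted p = 0.041), not called with quantile normalization (-0.41, adjusted p = 0.66), and lower with normexp (-1.94). The main Aplnr probe had -0.06 (95% interval -0.81 to 0.70). Apln 51_P209327 had 1.56 (adjusted p = 0.0049), 2.34 with quantile normalization and -0.40 with normexp (adjusted p = 0.11). Apln 51_P133345 had -1.35 (adjusted p = 0.034), -0.03 with quantile normalization (adjusted p = 0.95) and -2.53 with normexp, and was well above background on 6 arrays in all. Eng 01216 was called at -1.10 (adjusted p = 0.026) and at -1.26 with quantile normalization (adjusted p = 0.018), but not with normexp (-0.23, adjusted p = 0.54). Among the probes of the same sequence, 01417 and 01215 had -0.75 and -1.02 and were not called (adjusted p = 0.069 and 0.052). Single time labels decided these calls. The Aplnr call was lost without Week 3, 6, 12, 15 or 18 (-1.31 to -0.59), that of Eng 01216 without Week 9, 12, 15 or 18 (-1.24 to -0.61), that of Apln 51_P209327 without Week 9 (1.36, adjusted p = 0.051) and that of Apln 51_P133345 without Week 9 or 12 (-0.34 and -0.78). Without the HF20 Week 12 array alone, a choice made after seeing the data, the other Aplnr probe had -1.20 (adjusted p = 0.092) and Apln 51_P133345 had -1.29 (adjusted p = 0.068), while both Vwf probes, Pecam1, Eng 01216 and Apln 51_P209327 were still called.

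**Figure D4:**
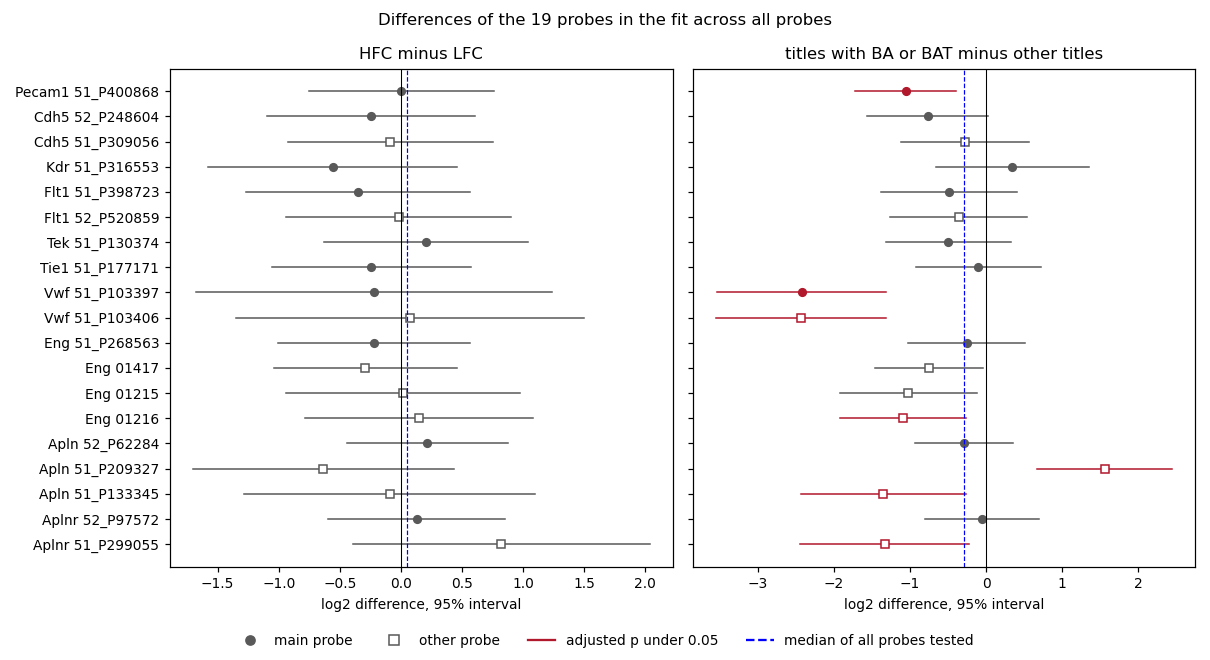
Fitted log2 difference with its 95% interval for the 19 member probes, HFC minus LFC on the left and titled minus other arrays on the right, with red for an adjusted p under 0.05 and a dashed line at the median of all probes. No probe is red for the diet, and both Vwf probes, at -2.42 and -2.44, lie farthest below 0 for the title.

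Other lists moved with the title too. Of 6 adipocyte genes 5 were called higher and 0 lower (median 1.95), with a mean list level of 3.91 to 5.72 on late titled arrays and -0.64 to 3.26 on the other late arrays. Adipoq, the gene of adiponectin, ran from 5.67 to 7.04 and from 1.12 to 5.05. Platelet genes, given here because platelets also store Vwf, had 4 of 6 called lower, and their mean level was -4.20 to -3.26 against -2.54 to -1.07. All 7 neutrophil genes and all 5 erythroid genes were called lower, as were 5 of 8 macrophage genes. Late titled arrays were also brighter, with a 75th percentile of 310.3 to 1289 intensity units (median 872) against 18.1 to 3974 (median 48.8), although only 1 of 741 member spots was saturated. The part of these cells and of brightness in the Vwf difference was not tested.

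**Figure D5:**
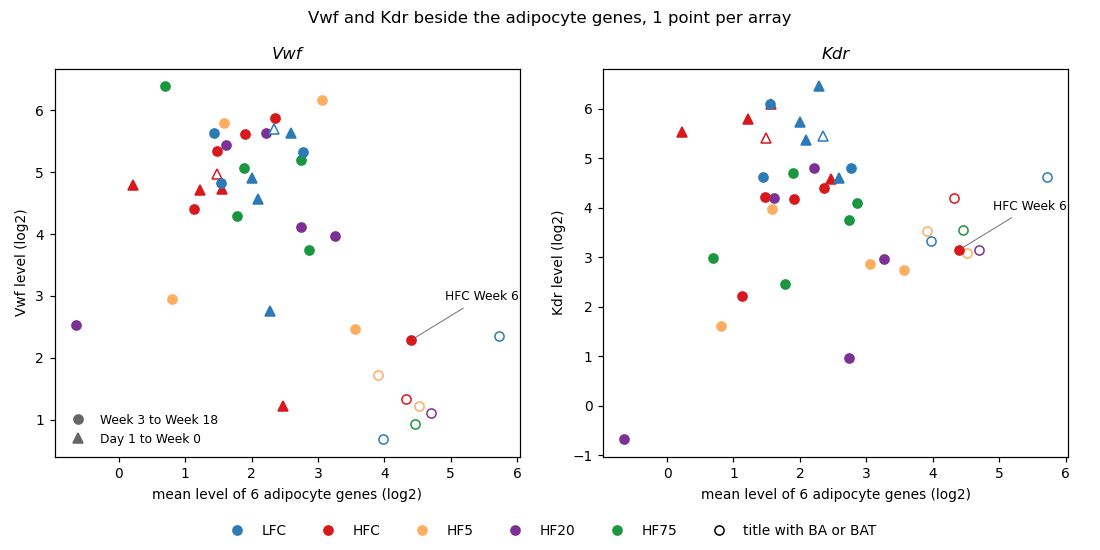
Level (log2) of Vwf and of Kdr against the mean level of 6 adipocyte genes on each array, with circles for Week 3 to Week 18, triangles for Day 1 to Week 0 and open symbols for titled arrays. Late titled arrays and HFC Week 6 sit at adipocyte levels of 3.91 and above with Vwf at most 2.36, whereas their Kdr levels of 3.08 to 4.61 lie within the range of the other arrays.

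Beyond the members, 9 of 29 further endothelial genes were called lower with the title and 0 higher (median -0.75, beside -0.37 over all genes, where 20.5% were called higher and 33.9% lower). Plvap, which forms the diaphragms of endothelial pores, had -2.49 (adjusted p = 0.00080) and the transcription factor gene Sox17 -1.66 (adjusted p = 0.013). Cd34 had -1.11 (adjusted p = 0.0097) and the tight junction gene Cldn5 -1.29 (adjusted p = 0.046). Among the VEGF and angiopoietin genes 2 of 12 were higher, Vegfa at 3.18 (adjusted p = 0.00012) and Angptl4 at 1.30 (adjusted p = 0.0092), and 3 were lower, Vegfc at -1.34, Pgf at -1.42 and Angpt2 at -1.33. In the apelin pathway 3 of 13 were called higher, Mme at 2.12, Prkaa1 at 0.90 and Prkaa2 at 1.26, and 4 lower, Arrb2 at -1.52, Klf2 at -1.73, Klf4 at -1.45 and Mef2c at -1.13. Of 10 mural genes, which mark the contractile cells around vessels, 2 were higher and 3 lower, and 3 of 4 lymphatic genes were lower.

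The endothelial members were correlated with each other across arrays, Vwf less than the rest. With each level centred on its time label, the median correlation of a gene with the other endothelial members was 0.68 for Pecam1, 0.76 for Cdh5, 0.74 for Kdr, 0.74 for Flt1, 0.74 for Tek and 0.71 for Tie1. It was 0.63 for Eng, 0.54 for Vwf, 0.55 for the main Aplnr probe and -0.02 for Apln. The lowest pair among the 8 was Kdr with Vwf, at 0.27. The main Aplnr probe correlated most with Tie1 (0.72) and least among the endothelial genes with Vwf (0.20). These points share arrays, brightness and cell makeup, so the values describe the arrays and carry no p. Outside the members, the genes most like the mean of the 8 over 39 arrays, among 8148 genes well above background on all of them, were Thsd1 (0.96), Tspan7 (0.95), Epb4.1l4a (0.95), Cd93 (0.94) and Sncaip (0.94), followed by Emcn, Elk3, Mmrn2, Tmem88 and Ramp2. Tspan7, Cd93, Emcn, Mmrn2 and Ramp2 belong to the further endothelial list. The main Aplnr probe was most like Plxnd1 (0.71), Pcdh12 (0.71), Gba2 (0.70) and Grap (0.68) among probes with a gene symbol, over 37 arrays. The other Aplnr probe had a different set, led by LOC636687 (0.88), Gm8765 (0.86) and Acr (0.86).

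Probes of 1 gene read alike for Vwf (correlation 0.97 over 38 arrays), Flt1 (0.95 over 39) and Cdh5 (0.83 over 38). The 3 Eng probes of the same sequence give the spread of a repeated reading within an array. Their range had a median of 0.12 over 38 arrays, was over 1 on 4 arrays and reached 3.57 on LFC Week 18, where they read 1.32, -1.80 and -2.26. The same-day pair Day 14 and Week 0 gives the spread between arrays. The median absolute difference of the 8 endothelial genes was 0.34 in LFC (0.85 over all probes) and 1.08 in HFC (1.11 over all probes). Vwf read 1.21 on Day 14 and 4.71 on Week 0 in HFC, and 2.75 and 4.56 in LFC, on arrays of the same day. That gap of 3.50 in HFC is larger than the fitted title difference.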

How the data were processed

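Scanner files as deposited give background-subtracted spot intensity from Agilent Feature Extraction (version 10.5.1.1 per the file headers), not scaled between arrays. The authors' series table of log2 values was used for gene symbols, for probe sequences and to check Day 14. Samples were grouped by diet and time label. The intensity was taken as log2 minus the 75th percentile of the array, computed with outlier-marked spots included. Those spots were then dropped, and spots of a probe were averaged. Probes well above background on at least 6 arrays (34043 probes of 24723 genes) were tested with limma 3.58.1 (statmod 1.5.0, R 4.3.3) in a fit of diet and time label over 39 arrays, two-sided, with Benjamini-Hochberg adjustment over all of them at 0.05. The methods' t-test needs replicates of a time label, which these arrays lack. It was run only as an alternative for HFC against LFC, with time labels as replicates, and no member probe was called in it. LFC and HFC residuals of the same label correlated at -0.54 to 0.81, over 0.1 at 5 of 10 labels, so the labels did not all pair, and the label stayed in the fit as planned. Upstream sequences came from RefSeq (GRCm38.p6). The fit was tested on simulated data. Arrays have no read depth, and their number and brightness limit the precision (31.2% to 98.0% of spots well above background). Every probe of the 10 genes and any gene of the pathway lists could be named. The members and lists were chosen with earlier results of these data known. Python 3.11.15, numpy 2.4.6, pandas 2.3.3 and matplotlib 3.10.9 were used.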

Additional observations from a re-analysis of the deposited data

Results flagged for a closer look

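In 3 of 76 groups of levels (1 probe in 1 diet), 1 array stood apart from the others by Dixon's criterion, which chance meets in about 1 group in 20. The HFC arrays, the largest group, were not examined, since the criterion was applied to smaller groups only. Eng 01216 read -2.26 on LFC Week 18, where the nearest of the other 9 LFC arrays was at 0.62. The Eng probe of the same sequence, 01417, read 1.32 on that array. Apln 52_P62284 read 3.45 on HF20 Week 18, where the nearest of the other 5 HF20 arrays was at 1.11. Aplnr 51_P299055 read 0.62 on the same array, with the nearest HF20 array at -2.77, while the main Aplnr probe read -2.49 there.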

How the results depend on the processing

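The number of probes called between HFC and LFC was 0, and it was 24 with array weights, 3 with quantile normalization, 2 with probes well above background on all arrays, 4 with the title as a covariate, 2 without the titled arrays, 4 without these and HFC Week 6 (chosen after seeing the data), 1 without HF20 Week 12 (also chosen after seeing the data), and 0 to 1 when each time label was left out. No member probe was called between HFC and LFC in any of these limma fits. The number called by title was 17828, and it was 10427 with quantile normalization, 28383 with normexp, 4923 with probes well above background on all arrays, and 10067 to 20348 when each time label was left out, lowest without Week 12. Under normexp the title difference changed sign for Flt1 51_P398723 (1.06), Flt1 52_P520859 (0.89), Eng 51_P268563 (0.67) and Apln 51_P209327 (-0.40), each called in at least 1 of the settings, and the cause was not tested. It also changed sign for Cdh5 52_P248604 (0.73), Cdh5 51_P309056 (0.01), Eng 01417 (0.43), Tie1 (0.26), Tek (0.01) and Apln 52_P62284 (0.04), which were called in neither. The median endothelial slope of -0.27 was -0.16 without the titled arrays, -0.14 without these and HFC Week 6, and -0.36 to -0.19 when each time label was left out. The late against early count was 0 in all 22 alternatives. Without the time label as replicate block, 16106 probes were called by title and 0 between HFC and LFC. Without the block the calls of Aplnr 51_P299055 (-0.86) and Apln 51_P133345 (-1.22) were lost, those of Eng 01417 (-0.84) and 01215 (-1.03) were gained, and Aplnr was at -2.57 in HF20 and -1.86 in HF75. In that fit dose arrays, which start at Week 3, were set against all HFC arrays from Day 1 on. The time course therefore enters these dose values. Dim arrays limit the weak Aplnr and Apln probes, which were well above background on 24 (Aplnr 51_P299055), 26 (Apln 51_P209327) and 6 (Apln 51_P133345) of 38 arrays.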
